A study of Mus musculus with 6 samples.

Results

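Liver X receptors (LXRs) and a small group of their best known target genes were examined in D10 T cells, a cloned mouse CD4+ helper T cell line, after 24 h at 26°C. The 7 genes were the receptors Nr1h3 (LXRα) and Nr1h2 (LXRβ) and the targets Apoe, Abca1, Abcg1, Mylip and Lpcat3. They were found by exact gene symbol among the 41079 genes of the deposited table, and they were chosen by name with their 26°C and 37°C values already known, so their differences between temperatures are given as a description with no p-value. RNA was sequenced from 3 cultures held for 24 h at 26°C (cold-acclimated) and 3 held for 24 h at 37°C (non-acclimated), numbered as replicates 1 to 3 in each condition. All 6 cultures are labelled as the same cloned line, and the source tissue was given as lymph node. Other than temperature, no agent or allele was named as differing between the conditions. The study's methods give IL-2 in the medium in which the line was maintained. The sample descriptions mentioned independent extraction batches without saying which library belonged to which, so a batch other than the replicate number could not be examined.

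LXRs are nuclear receptors that are activated by oxysterols and by the cholesterol precursor desmosterol. Each binds DNA together with a retinoid X receptor (RXR), at paired copies of a short hexamer, and keeps many targets low through corepressors until a ligand arrives. Their targets move cholesterol out of the cell, load it onto lipoproteins, limit its uptake and remodel membrane lipids. In T cells, LXR activity is known for restraining proliferation through sterol export.

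Values are TPM, read numbers divided by gene length and scaled to the same total in each library, so that levels can be compared between genes. Whole reads could be recovered from the TPM values, and the libraries held between 16899628 and 31290854 reads on genes. Differences are on the log2(TPM + 1) scale, which understates changes of genes near 0. A gene was tested when its mean TPM over the 6 libraries was at least 1, and it was called changed at a limma adjusted p under 0.05 and a log2 difference of at least 1 in size.

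The CD3 chains were found in every library, but not every T cell marker was. Cd3e, part of the T cell receptor complex, was between 476 and 874 TPM, and Gata3, the helper T cell type 2 transcription factor, was between 387 and 751 TPM. Cd4 itself was high in replicate 3 of both conditions (310 and 328 TPM) and at most 1.30 TPM in replicates 1 and 2. Trac, the constant part of the T cell receptor α chain, was at most 15.0 TPM in replicate 2 and at least 129 TPM in the other replicates. Cd3d, another CD3 chain, was at 64.3 and 78.6 TPM in replicate 2 and at least 240 TPM in the other replicates. Thy1 was listed at 0 in all libraries, and Cd5 was at most 0.045 TPM. Because replicates differed in this way, values are given for each replicate number. Whether the replicate numbers hold the same subclone of the line is not given in the sources used here.

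The DNA element that LXR and RXR bind together, called DR4, is 2 copies of the hexamer AGGTCA on the same strand with 4 bases between them. The 250 bases before the transcript starts of the 7 genes were searched on both strands for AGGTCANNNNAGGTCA, in GRCm39 with GENCODE transcripts. With up to 2 differences from the 12 fixed letters, none of the 7 windows at the main annotated starts held a match, against 2.43% of 21756 windows of all protein-coding genes. With 3 differences, a limit set after the stricter search had found none, the windows of Abca1 and Lpcat3 held a match, as did 18% of all windows. Apoe has 7 annotated coding starts, and at this looser limit windows at 2 of its other starts held 3 matches. Both of these starts lie upstream of the gene span in the deposited table. The windows at the 4 starts of Nr1h2 and the 10 starts of Nr1h3 held none. The 18% is for a single window per gene, so it is not a background for genes with several starts. The matched sites are shown to let the letters be compared with the element. Each is printed from 7 bases before to 7 bases after the match, on the strand of the match, and capitals mark the letters that equal the element.
Abca1, chr4:53159940-53159969, plus strand: agcgccggGGTtActaccGGTCAaacgctg
Lpcat3, chr6:124639663-124639692, minus strand: gaccgcgAGGTtActctcGGTCgccggcgc
Apoe, chr7:19434844-19434873, minus strand: gaaacggAGtTCctggaAGtTCAgcacaat
Apoe, chr7:19435115-19435144, minus strand: gaaagcttGGcCAggcatGGTCAcaccctc
Apoe, chr7:19435040-19435069, minus strand: accaggagGGTggctccAGGTCActcgcct
All 5 share 9 of the 12 letters. A match of this kind is common among promoters, and its presence says nothing about binding in these cells. Gene-level reads do not tell which Apoe start was used.

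Apoe, the lipid-binding apolipoprotein of circulating and secreted lipoproteins, was higher in every cold-acclimated library than in any non-acclimated one. The gene lies at chr7:19430169-19434326 on the minus strand. Its level was 3.23, 7.93 and 26.0 TPM in non-acclimated replicates 1 to 3. In cold-acclimated replicates 1 to 3 it was 60.5, 132 and 70.7 TPM. Replicate 3 was the highest at 37°C, and replicate 2 the highest at 26°C.

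The means were 12.4 ± 12.0 TPM (SD, n = 3) at 37°C and 87.7 ± 38.7 TPM (SD, n = 3) at 26°C. The log2 difference was 3.06 with a standard error of 0.65. Within replicate numbers the ratio was 18.7 in replicate 1, 16.6 in replicate 2 and 2.73 in replicate 3, so the smallest ratio belonged to the replicate with the highest level at 37°C. The reads behind the values were 54, 159 and 762 at 37°C and 1277, 2899 and 1762 at 26°C. Among the 12227 tested genes, Apoe had the 12th largest positive log2 difference.

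Across all tested genes, all 3 cold-acclimated libraries lay above all 3 non-acclimated ones in 9.69% of genes and below them in 31.4%. In the fit over all genes, of the 4 genes of the group that reached the minimum level (Apoe, Abcg1, Lpcat3 and Nr1h2), Apoe passed the thresholds as higher and none as lower, against 2.63% of all genes called higher and 16.0% called lower. Abca1, Mylip and Nr1h3 did not reach the minimum level and were not tested. Since the genes were selected on this same contrast, nothing is read from these counts. The call of Apoe was lost without a minimum level and when replicate 1 or replicate 2 of either condition was left out.

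**Figure D1:**
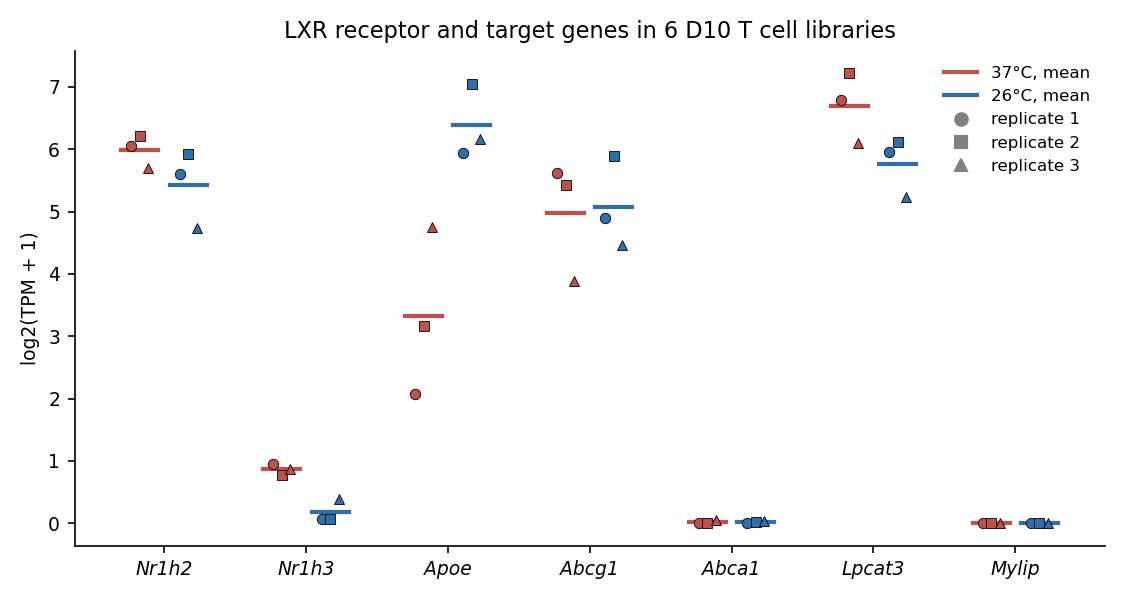
Levels of the 7 genes in the 6 libraries, as log2(TPM + 1), with 37°C in red and 26°C in blue. Symbols are single libraries by replicate number and bars are means of 3; the 3 red Apoe points lie below the 3 blue ones, while Abca1 and Mylip sit at or near 0.

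The spread of Apoe among the non-acclimated cultures was itself wide. Its SD on the log2(TPM + 1) scale was 1.34 at 37°C, larger than that of 97.6% of the 9743 genes averaging 5 TPM or more, for which the median SD was 0.32. At 26°C its SD was 0.59, larger than that of 75.8% of those genes. The highest non-acclimated level was 8.04 times the lowest, and the highest cold-acclimated level was 2.18 times the lowest.

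Abcg1, which exports sterols to high-density lipoprotein, showed no shared direction. Located at chr17:31276668-31336958 on the plus strand, it was at 48.1, 42.0 and 13.7 TPM in non-acclimated replicates 1 to 3, and at 28.7, 58.3 and 21.0 TPM in cold-acclimated replicates 1 to 3. Replicate 3 was the lowest in both conditions, and the conditions overlapped. The log2 difference was 0.11 with a standard error of 0.54. It was -0.72 within replicate 1, 0.46 within replicate 2 and 0.58 within replicate 3, and leaving out single libraries moved it between -0.44 and 0.43.

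Abca1, the transporter that loads cholesterol onto lipid-poor apolipoproteins and a textbook LXR target, was close to undetected. From chr4:53030789-53159988 on the minus strand, it gave 0, 0 and 5 reads in non-acclimated replicates 1 to 3 and 0, 1 and 2 reads in cold-acclimated replicates 1 to 3. The highest level in any library was 0.040 TPM, and no ratio is given because at most 5 reads were seen in a library.

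Mylip, also called Idol, is a ubiquitin ligase that sends lipoprotein receptors to degradation. The gene lies at chr13:45543197-45565498 on the plus strand and was listed at 0 in all 6 libraries. Ube2d1, one of the conjugating enzymes that work with it, was also listed at 0 in all libraries, so no more than the listing is stated.

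Lpcat3, the enzyme that places polyunsaturated fatty acids into membrane phospholipids, was lower at 26°C within each replicate number. Located at chr6:124639887-124681142 on the plus strand, it was at 110, 148 and 67.3 TPM in non-acclimated replicates 1 to 3, and at 61.3, 68.6 and 36.5 TPM in cold-acclimated replicates 1 to 3. The conditions overlapped by a single library each way, since non-acclimated replicate 3 was below cold-acclimated replicate 2. The log2 differences were -0.83, -1.10 and -0.87 within replicates 1 to 3. Between conditions the log2 difference was -0.93. Its standard error of 0.37 is from the limma fit that did not pair the replicate numbers, so it is not that of the differences within replicates.

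Nr1h2, the widely expressed receptor LXRβ, was by far the more abundant of the LXRs. Located at chr7:44199040-44204928 on the minus strand, it was at 65.5, 72.9 and 50.9 TPM in non-acclimated replicates 1 to 3, and at 47.8, 60.0 and 25.8 TPM in cold-acclimated replicates 1 to 3. The lower value was at 26°C in each pair, and the conditions overlapped. Between conditions the log2 difference was -0.56, with a standard error of 0.34 from the same unpaired fit. Leaving out cold-acclimated replicate 3 gave -0.22, and leaving out replicate 2 at 26°C gave -0.81.

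Nr1h3, the receptor LXRα, which is best known from macrophages and liver, stayed under 1 TPM. It was at 0.925, 0.717 and 0.829 TPM in non-acclimated replicates 1 to 3, from 14, 13 and 22 reads. In cold-acclimated replicates 1 to 3 it was at 0.052, 0.050 and 0.311 TPM, from 1, 1 and 7 reads. All cold-acclimated values were below all non-acclimated ones, but they rest on 9 reads in total against 49. Its span, chr2:91014406-91033189 on the minus strand, shares 33 bases with Acp2 and all 104 bases of the small nuclear RNA gene Gm23390, both on the opposite strand. Gm23390 was at 1.40, 1.17 and 0 TPM at 37°C and listed at 0 in all 26°C libraries. The strand setting of the counting was not given in the sources used here, so reads of Nr1h3 and of these genes cannot be told apart where they overlap.

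**Figure D2:**
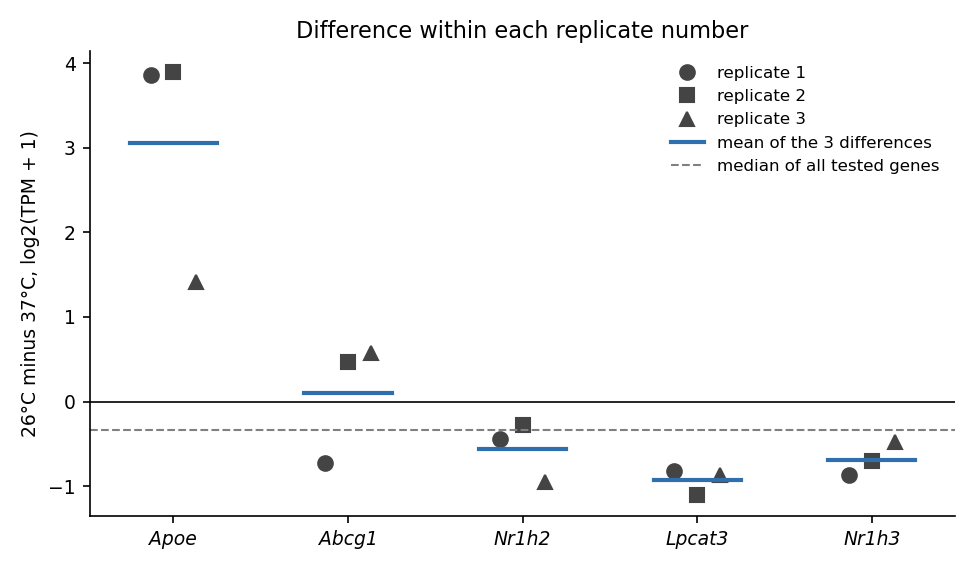
Difference between 26°C and 37°C on the log2(TPM + 1) scale within each replicate number (symbols) and their mean (blue bars) for the 5 genes with more than 5 reads in a library; the dashed line is the median of all tested genes, at -0.34. Apoe lies above 1 in each replicate number, Lpcat3, Nr1h2 and Nr1h3 lie below 0, and Abcg1 crosses 0.

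The scaling of the libraries bears on the smaller differences. The median log2 difference of all 12227 tested genes was -0.34, and 321 genes were called higher against 1954 lower. When libraries were scaled by the median of gene ratios instead, the median became 0.03 and the calls became 840 higher and 1052 lower. Under that scaling the log2 difference was 3.44 for Apoe, 0.51 for Abcg1, -0.52 for Lpcat3 and -0.15 for Nr1h2. Relative to the median gene on the TPM scale, they were 3.39 for Apoe, 0.44 for Abcg1, -0.59 for Lpcat3 and -0.22 for Nr1h2.

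The order of the levels changed between temperatures mainly through Apoe. At 37°C the order by mean TPM was Lpcat3, Nr1h2, Abcg1, Apoe, Nr1h3, Abca1 and Mylip. Neighbours in this order whose ranges over the 3 libraries did not overlap were Nr1h2 and Abcg1, Apoe and Nr1h3, and Nr1h3 and Abca1. At 26°C Apoe stood first, followed by Lpcat3, Nr1h2 and Abcg1, and the ranges of these 4 overlapped from each to the next. Nr1h3, Abca1 and Mylip again came last, with gaps on both sides of Nr1h3.

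Replicate numbers were compared as a separate question, in a limma fit with temperature and replicate number as terms, where 3.61% of all tested genes differed among replicate numbers at an adjusted p under 0.05. None of the 4 tested genes of the group passed: the adjusted p was 0.11 for Lpcat3, 0.13 for Abcg1, 0.21 for Nr1h2 and 0.32 for Apoe. The unadjusted p in this fit was 0.011 for Lpcat3, 0.014 for Abcg1, 0.043 for Nr1h2 and 0.11 for Apoe. The share of all genes at such unadjusted values is not given here, so nothing is read from them.

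Replicate 3 was the lowest replicate in both conditions for Abcg1, Lpcat3 and Nr1h2, a pattern seen in 17.7% of all tested genes. Over 4 lists of LXR targets without the group itself (sterol efflux transporters, lipoprotein components and modifiers, lipogenic targets and other targets), 8 of the 14 tested genes showed it, and over all 53 tested pathway genes 19 did. Scd1, the stearoyl-CoA desaturase, and Pltp, the phospholipid transfer protein, differed among the 3 replicate numbers in the limma F test (adjusted p = 0.0029 and 0.017). Their log2 differences between replicate 3 and replicate 1, which were not tested on their own, were -3.06 and -2.62. For Apoe this difference was 1.45.

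**Figure D3:**
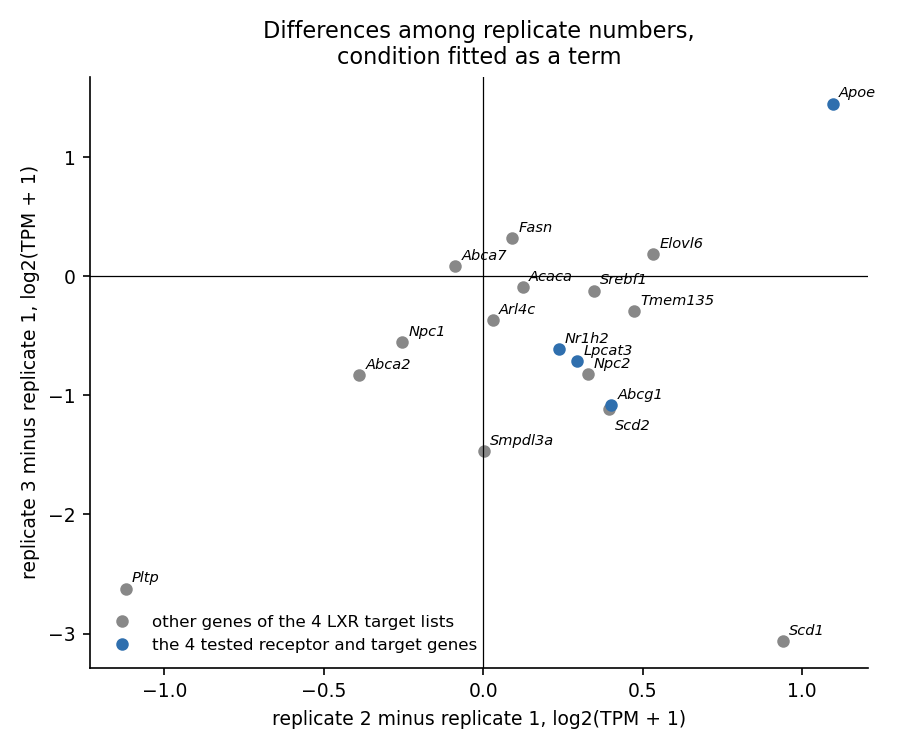
Differences among replicate numbers on the log2(TPM + 1) scale with temperature fitted as a term, replicate 2 minus 1 on the horizontal axis and replicate 3 minus 1 on the vertical axis, for the 4 tested genes of the group (blue) and the 14 tested genes of the LXR target lists (grey). Apoe lies at the top right, while Abcg1, Lpcat3 and Nr1h2 lie below 0 on the vertical axis and Scd1 and Pltp lowest.

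The genes whose log2(TPM + 1) profile over the 6 libraries was most like that of Apoe were Afg2a, Med8, 4930455C13Rik, 2410002F23Rik and Supt6, with Pearson's r of 0.997, 0.994, 0.992, 0.992 and 0.991. They were taken from the 9742 other genes averaging 5 TPM or more. Afg2a was at 25.9, 39.8 and 65.7 TPM at 37°C and at 123, 179 and 131 TPM at 26°C, with the libraries in the same order as for Apoe. No gene of the LXR lists was among these 5, and the closest, Scarb1, a receptor for high-density lipoprotein, ranked 41st with r = 0.973. With 6 libraries and so many genes, values of this size are a description, and the points share the temperature groups.

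The genes most like Abcg1 were Mob1a, Zfp74 and Npc2, with r of 0.997, 0.982 and 0.977. Npc2, which carries cholesterol inside lysosomes, is itself on the list of LXR targets, and was at 264, 272 and 111 TPM at 37°C and 229, 350 and 172 TPM at 26°C. The genes most like Lpcat3 were Fbrs, Cd151 and Tnfsf14, each with r between 0.992 and 0.994. The genes most like Nr1h2 were Dusp14, Rhbdd2 and Tbl1x, with r of 0.992, 0.988 and 0.986, and Tbl1x is part of the corepressor complex of nuclear receptors.

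Beyond the group, 82 further genes of the LXR pathway were listed in 12 lists by role, and 53 of them could be tested. Of these, 1 was called higher (Lrp8) and 3 were called lower (Rxrb, Soat1 and Mboat1), against 2.63% and 16.0% of all genes. Their median log2 difference was -0.18, against -0.34 for all genes. These lists were drawn up with results of these data known. The calls depended on the libraries and the scaling: none of the 4 remained when replicate 1 or 2 of either condition was left out, Soat1 was also lost without cold-acclimated replicate 3, and under scaling by the median of gene ratios the 3 lower calls were lost and 4 genes were called higher (Lrp8, Ncoa1, Scarb1 and Ube2d3).

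Among the receptors and their partners, Rxrb, an RXR that pairs with LXR, fell from 54.5, 55.5 and 56.6 TPM at 37°C to 19.5, 23.6 and 30.9 TPM at 26°C. The log2 difference was -1.16 with a standard error of 0.24 (limma adjusted p = 0.019), and the adjusted p ranged from 0.0068 to 0.22 over the alternatives. Rxra was at most 0.743 TPM and Rxrg at most 0.058 TPM, so Rxrb was the main RXR by level in these cells. None of the 14 tested coregulators was called by limma or by the fit on recovered reads, against 2.63% of all genes called higher and 16.0% lower in limma. At an unadjusted limma p under 0.05, 1 was higher and 1 lower, against 948 and 3664 of all 12227 genes. Gps2, a corepressor subunit, was the most abundant, with a mean of 284 TPM over the 6 libraries, and Hdac3, the deacetylase of the same complex, had a mean of 89.0 TPM.

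Among lipoprotein receptors, Lrp8, a receptor for Apoe-containing particles, rose from 10.7, 11.7 and 25.3 TPM at 37°C to 50.6, 31.9 and 33.0 TPM at 26°C. The log2 difference was 1.29 with a standard error of 0.37 (limma adjusted p = 0.046, and 0.0082 to 0.35 over the alternatives). As with Apoe, its highest non-acclimated level was in replicate 3. Scarb1, with a mean of 71.2 TPM, had a log2 difference of 0.69 and an adjusted p of 0.072 in limma. Vldlr was listed at 0 and Lrp1 was at most 0.072 TPM.

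Among genes of cholesterol storage and release, Soat1, which esterifies cholesterol for storage, fell from 154, 188 and 66.2 TPM to 50.5, 44.9 and 33.8 TPM. The log2 difference was -1.52 with a standard error of 0.40 (limma adjusted p = 0.036, and 0.0041 to 0.27 over the alternatives). All 4 genes of this list had a negative log2 difference, with a median of -0.65. Of all 12227 tested genes, 8137 were also below 0, with a median of -0.34. Lipa, the lysosomal lipase that releases cholesterol, had a mean of 39.1 TPM and an adjusted p of 0.17 in limma.

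Among lysophospholipid acyltransferases, the enzyme family of Lpcat3, Mboat1 fell from 80.2, 62.0 and 46.5 TPM to 31.2, 21.6 and 20.7 TPM. The log2 difference was -1.31 with a standard error of 0.29 (limma adjusted p = 0.021, and 0.0075 to 0.23 over the alternatives). Lpcat4 and Mboat7, the most abundant of the others, had means of 121 and 87.9 TPM and were not called. The log2 difference of Lpcat4 was 0.31 and that of Mboat7 was 0.06, so members of this family lay on both sides of 0.

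The remaining 8 lists held no gene called by limma or by the fit on recovered reads. Of their 39 tested genes, 3 were higher and 6 lower at an unadjusted p under 0.05, against 948 and 3664 of all 12227 genes. Among lipogenic targets, Acaca, the first enzyme of fatty acid synthesis, fell by 0.83 on the log2 scale (limma adjusted p = 0.045), which is under the size threshold. Scd2, the most abundant of that list at a mean of 300 TPM, had a log2 difference of -1.09 (adjusted p = 0.17), which passed in the fit paired by replicate number (adjusted p = 0.015) and also without non-acclimated replicate 3 or both libraries of replicate 3. Fasn, the fatty acid synthase, had a log2 difference of 0.23 and an adjusted p of 0.67 in limma.

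Abca2, an intracellular lipid transporter, led the efflux list with a mean of 137 TPM and was not called (log2 difference -0.31). Pltp led the lipoprotein list at 584, 202 and 100 TPM at 37°C and 761, 463 and 115 TPM at 26°C, a log2 difference of 0.59 with a standard error of 0.82. Npc2 and Arl4c led the other targets, with log2 differences of 0.26 and -0.07. Ube2d3, a conjugating enzyme used by ubiquitin ligases, rose by 0.76 on the log2 scale (limma adjusted p = 0.037), under the size threshold, and Ube2d2a had a log2 difference of 0.46 (adjusted p = 0.13).

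Of 9 listed genes that make or consume oxysterols and desmosterol, 4 reached the minimum level. Ch25h, which makes 25-hydroxycholesterol, was at most 0.214 TPM, and Cyp27a1, Cyp46a1 and Cyp7b1 were listed at 0. Cyp11a1, the side-chain cleavage enzyme that starts steroid synthesis from cholesterol, had a mean of 1033 TPM. It was at 1030, 1634 and 1369 TPM at 37°C and at 512, 744 and 905 TPM at 26°C, with a log2 difference of -0.91 (limma adjusted p = 0.068).

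**Figure D4:**
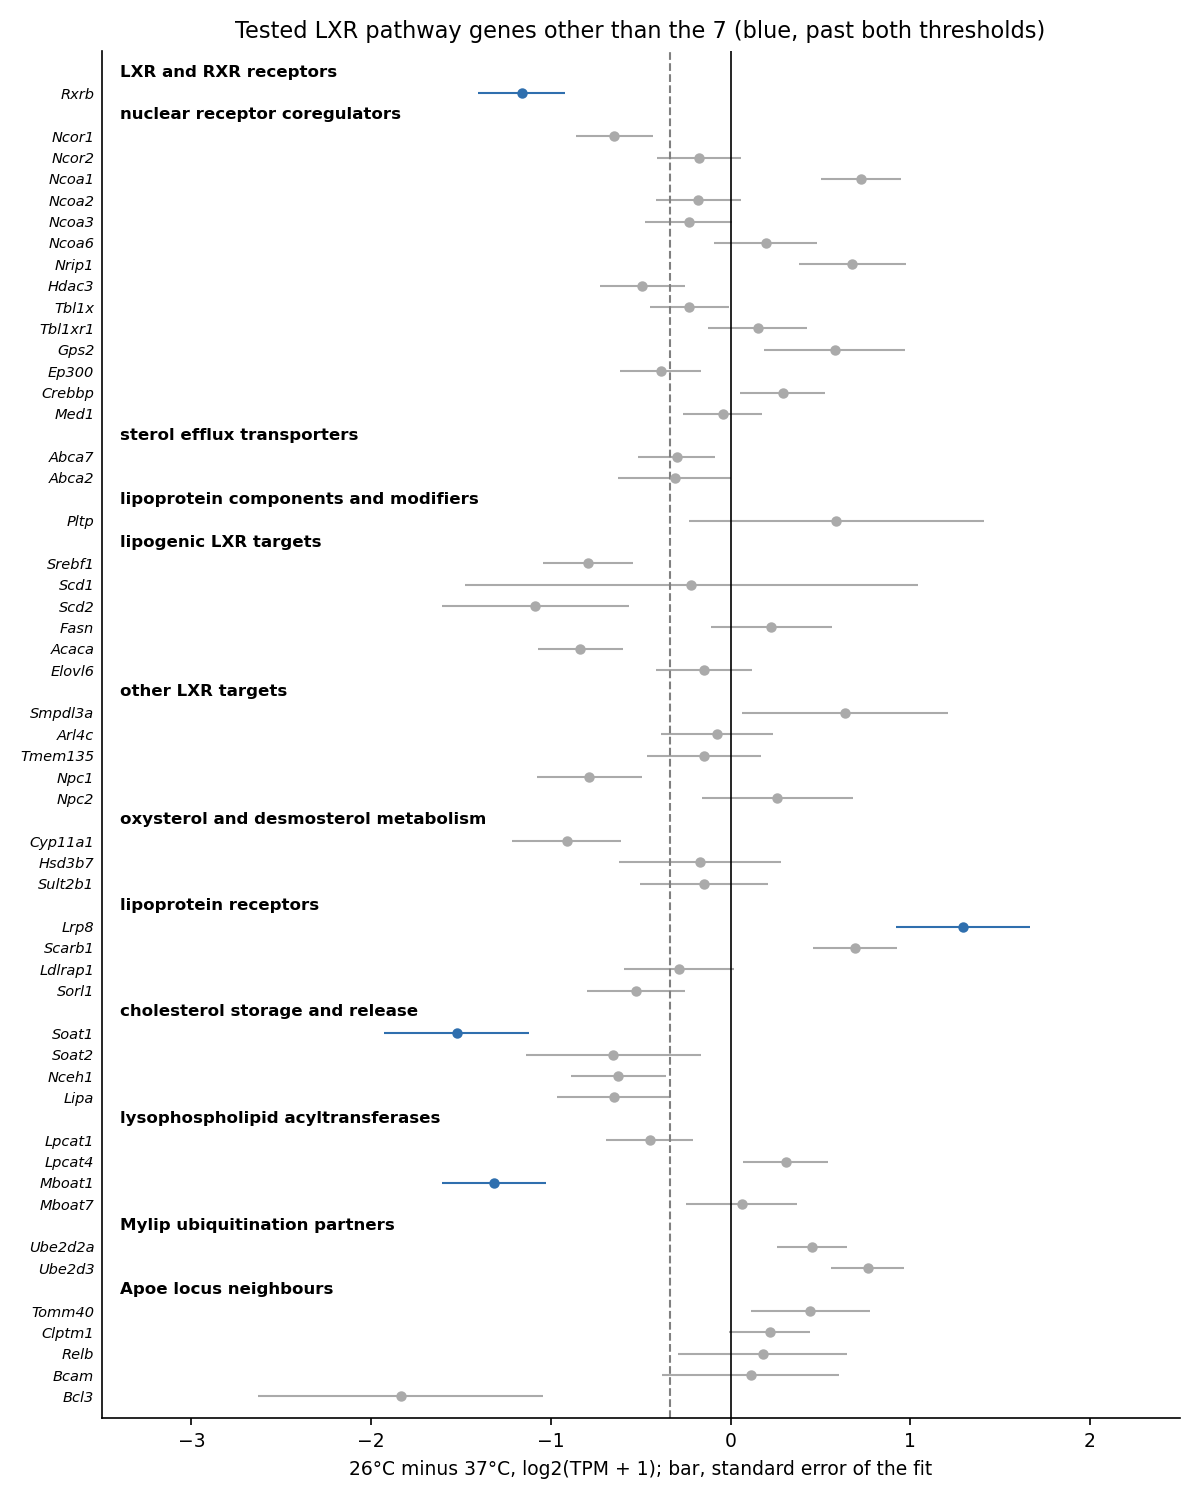
Log2 difference between 26°C and 37°C, on the log2(TPM + 1) scale, for 51 tested pathway genes by list, with standard errors of the limma fit as bars; blue genes passed both thresholds, the solid line is 0 and the dashed line is the median of all tested genes. Lrp8 is the blue gene on the right, and Rxrb, Soat1 and Mboat1 are the blue genes on the left.

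The neighbours of Apoe on chromosome 7 did not share its difference. Tomm40, a mitochondrial import pore gene that lies 911 bases upstream on the same strand, was at 71.1, 139 and 141 TPM at 37°C and 156, 187 and 121 TPM at 26°C. Its log2 difference was 0.44 with a standard error of 0.33 (limma adjusted p = 0.37), and the conditions overlapped. The apolipoprotein genes downstream were at or near 0: Apoc2 and Apoc4 were listed at 0, and Apoc1 was at most 0.201 TPM. Clptm1 had a log2 difference of 0.22. Bcl3, an atypical regulator of NF-κB that lies 108060 bases upstream, had a log2 difference of -1.83 with a standard error of 0.79, which did not pass in limma (adjusted p = 0.13) but passed in the fit paired by replicate number (adjusted p = 0.0070) and without both libraries of replicate 3 (adjusted p = 0.011). Among the 5 tested neighbours, 0 were called by limma or by the fit on recovered reads. In limma, 2.63% of all genes were called higher and 16.0% lower. None of the 5 had an unadjusted limma p under 0.05, and the lowest was 0.051, for Bcl3. Of all 12227 genes, 948 were higher and 3664 lower at that threshold. With so few neighbours, nothing is read from these counts.

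**Figure D5:**
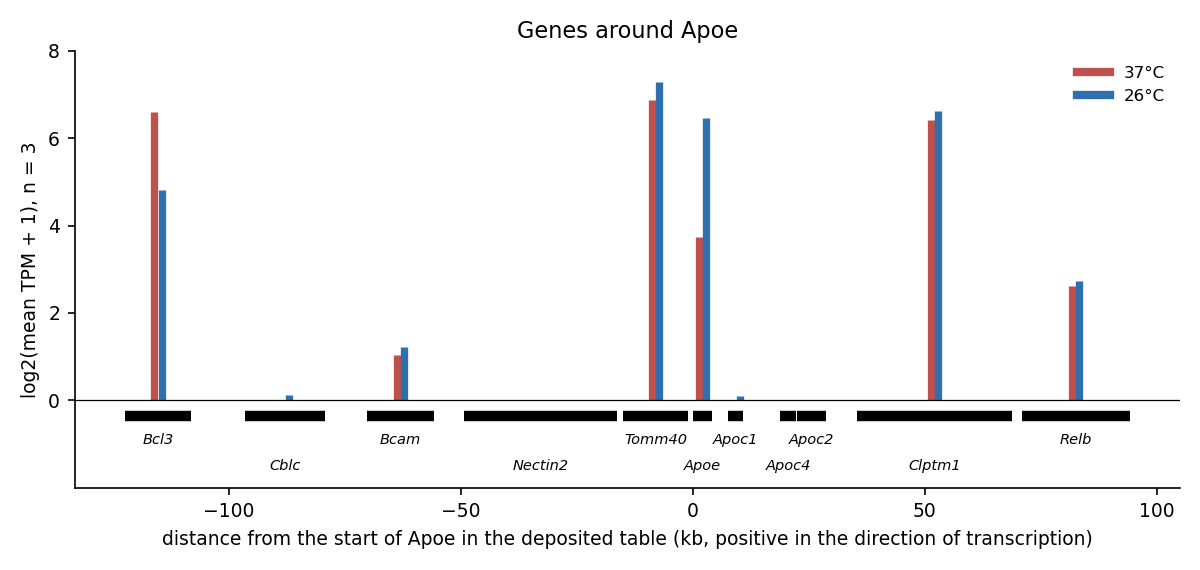
Mean level of each listed gene around Apoe, as log2(mean TPM + 1) with n = 3 libraries per bar, at 37°C (red) and 26°C (blue), against the distance in kb from the start of Apoe, with black bars for the gene spans. Apoe at 0 has a taller blue than red bar, while Tomm40, Clptm1 and Relb have bars of similar height and the bars of Apoc1, Apoc2, Apoc4 and Nectin2 are at or near 0.

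Apoe and Nr1h3 are abundant in macrophages, so markers of other cell types were read beside them. Of 15 macrophage and monocyte markers, 6 were listed at 0 in all libraries, among them C1qa, C1qb, C1qc and Cd14. Csf1r and Adgre1 were at most 0.071 TPM. Other markers of the list were detected, and Cd68 and Aif1 were above 0 in every library. Cd68 was between 1.07 and 6.36 TPM, and Aif1 had a mean of 1.52 TPM over the 6 libraries. The summed level of the list was 5.18, 5.19 and 18.7 TPM in non-acclimated replicates 1 to 3 and 5.45, 3.47 and 22.7 TPM in cold-acclimated replicates 1 to 3. It was highest in replicate 3 of both conditions, mainly through Lyz2, and the conditions overlapped. Whether such cells add to the level of Apoe was not tested. In bulk RNA, fewer cells of a type and less RNA per cell cannot be told apart.

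The summed level of 10 B cell markers was between 1.02 and 3.62 TPM and that of 6 fibroblast markers between 1.52 and 4.53 TPM. The 6 erythroid markers summed to between 61.3 and 487 TPM, nearly all of it Hba-a1, and were highest in replicate 3 of both conditions, where Apoe at 37°C was also highest. The part of these differences between replicates in the values of Apoe was not tested.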

How the data were processed

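Poly(A)+ RNA of 6 D10 T cell cultures was made into strand-specific libraries and sequenced. The submitters' processing notes name FastQC 0.11.7, Trimmomatic 0.38, HISAT2 2.1.0, featureCounts 1.6.3 and the GRCm39 build, without their settings. The authors deposited TPM per gene, which sum to the same total in each library. The values were taken as whole multiples of what 1 read is worth. Whole read numbers were found for 100% of the 21195 genes above 0 (tolerance 1e-06 reads), up to a common factor for 901 genes. In simulated data with known reads, every read number was recovered in 98.9% of genes. Library totals there differed by at most 0.37%.

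Genes averaging 1 TPM or more were fitted as log2(TPM + 1) in limma 3.58.1 (R 4.3.3), with a mean-dependent variance prior and Benjamini-Hochberg adjustment over all 12227 genes. Both thresholds were those of the study's methods, but the study's DESeq2 was not run. The authors deposited TPM rather than counts, and the recovered reads were fitted only as an alternative, with voom weights. The standard error printed for a gene is from the limma fit of log2(TPM + 1), which did not pair the replicate numbers. In simulated data with 200 changed genes among 12172, for cold-acclimated against non-acclimated cells, this fit found 198 with 9 other calls. Only genes with many reads were changed there. The spread was set alike for every gene, and no differences between replicate numbers were included. The simulation therefore does not show how reliable the calls are in these libraries.

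Members and lists were chosen with earlier results of these data known. Named genes were the 7, the called genes and the 2 most abundant genes of each list, and the genes most correlated with Apoe (5) and with Abcg1, Lpcat3 and Nr1h2 (3 each); further list genes (among them Acaca, Bcl3, Scd1, Relb and Rxra) were named after their values were seen. The pathway lists held LXR and RXR receptors, coregulators, efflux transporters, lipoprotein components, lipogenic and other targets, oxysterol metabolism, lipoprotein receptors, cholesterol storage, lysophospholipid acyltransferases, Mylip partners and Apoe neighbours.

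Deviations of same-numbered libraries from their condition means correlated at 0.48, 0.50 and 0.51 across genes, and those of other pairs at -0.41 to 0.02, so the replicate numbers were taken to pair the libraries. The pairing comes from the data, since the labels give only the number. The test of replicate numbers was added after seeing the data. Alternatives were a pseudocount of 0.1, no minimum level, a minimum of 5 TPM, scaling by the median of gene ratios, a replicate block, voom weights on recovered reads, and leaving out single libraries or, added after seeing the data, both libraries of a replicate number. Replicates are described as independently prepared, and p-values measure the spread between these cultures. Some list genes and a sequence are not reported here.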

Additional observations from a re-analysis of the deposited data

How the results depend on the processing

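Without a minimum level, 184 genes were called higher and 1121 lower, and of the LXR pathway genes 0 were called higher (5 at an unadjusted p under 0.05), with Lrp8 and Soat1 lost. The fit on recovered reads called 408 genes higher and 1702 lower, and the same 1 and 3 pathway genes. Scaling by the median of gene ratios gave 840 higher and 1052 lower over all genes, and 4 pathway genes higher and 0 lower (3 lower at an unadjusted p under 0.05). It moved the log2 difference of Lpcat3 from -0.93 to -0.52 and that of Nr1h2 from -0.56 to -0.15. The pseudocount of 0.1 moved Nr1h3 from -0.69 to -2.12. In the fit with a replicate block, 458 genes were called higher and 2679 lower, and 1 pathway gene higher and 5 lower, the 3 of the unpaired fit with Bcl3 and Scd2. The block changed no other call among the pathway genes.

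Leaving out libraries, singly or both of a replicate number, gave 0 to 657 genes higher, 0 to 3094 lower, 0 to 1 pathway genes higher and 0 to 5 lower. The 0 counts over all genes came from leaving out both libraries of replicate 1 (400 higher and 2010 lower at an unadjusted p under 0.05) or of replicate 2 (381 and 1857), where 2 libraries per condition remained. For Lpcat3 these log2 differences ran from -1.23 to -0.66. Apoe ran from 2.43 to 3.88 and was positive throughout. The sign of Abcg1 turned negative without non-acclimated replicate 3 (-0.44), cold-acclimated replicate 2 (-0.30), both libraries of replicate 2 (-0.07) or both of replicate 3 (-0.13). Of 64 alternative log2 differences of Apoe, Abcg1, Lpcat3, Nr1h2 and Nr1h3, 57 moved by less than the SD of the 3 differences within replicate numbers. For some of them this was fixed in advance. The replicate block leaves the value unchanged, and leaving out both libraries of a replicate number cannot move it by that SD. The count is therefore no measure of stability. The cause of the movements between settings was not tested. Depth limits Nr1h3 and Abca1, whose reads per library did not exceed 22 and 5.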
